A study of Mus musculus with 18 samples.

Results

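The effect of checkpoint antibodies on the transcriptome was compared between CD8+ and CD4+ T cells sorted from the same kind of tumor. The quantity described is a difference of differences per gene: the change with antibodies in CD8 cells minus the change with antibodies in CD4 cells. It used 12 of the 18 libraries of the series, in 4 groups of 3: untreated CD8, treated CD8, untreated CD4 and treated CD4 cells. All 4 groups came from mice of strain B6 with a floxed miR-155 gene and Cre under the CD4 promoter, so treated and untreated cells alike were miR-155 deficient. That Cre acts during T cell development, and therefore in both lineages. Tumors were B16f10-OVA, a mouse melanoma line carrying ovalbumin, grown under the skin for 12 days. Treated mice had received antibodies into the peritoneum, against PD-1/PD-L1 and against CTLA-4, on days 3, 6 and 9, in 250 ul. Each library held sorted cells of 2 to 3 pooled tumors. The remaining 6 libraries, from floxed mice without Cre and without antibodies, shared the estimate of spread and did not enter the difference. Floxed mice given antibodies were not analysed here, so nothing below separates the antibody response of deficient cells from that of cells with miR-155.

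T cells are held in check by PD-1 and CTLA-4. PD-1 acts mostly on cells that already meet antigen in the tissue, and CTLA-4 competes with CD28 for its ligands and is carried at high level by regulatory T cells, which belong to the CD4 lineage. In tumors, CD8 cells under lasting antigen pass from a TCF1-bearing, self-renewing state to an effector and then exhausted state, in which granzymes, inhibitory receptors and the ectonucleotidase CD39 accumulate. Tumor CD4 cells mix regulatory and helper cells, and the regulatory ones carry many of the same receptors without treatment.

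The 12 libraries held 3.198 to 11.65 M counts (mega counts) and 15165 to 19533 detected genes. Treated CD8 replicate 2 had 25.6% of its counts on ribosomal-like models and untreated CD4 replicate 3 had 11.8%, against 1.23 to 3.46% in the other 10. Cd8a ran from 623 to 1166 CPM (counts per M counts, scaled between libraries by the TMM method) in the CD8 libraries and from 0.136 to 17.4 in the CD4 libraries, the highest of these being treated CD4 replicate 2. Cd4 ran from 529 to 1089 CPM in the CD4 libraries and from 0.892 to 2.38 in the CD8 libraries, so the sorted lineages matched their labels. Mir155hg, the host transcript of the deleted microRNA, was at or below 1.9 CPM in all 12 libraries. The labels name pools of tumors and do not say whether CD8 and CD4 pools with the same number share animals. The p-values therefore measure the spread between these libraries. In bulk libraries such as these, fewer cells of a type and less RNA per cell cannot be told apart.

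Of 14080 genes tested, 113 (0.803%) had a difference at an adjusted p under 0.05 (edgeR, quasi-likelihood, Benjamini-Hochberg adjustment over all of them), and such genes are referred to as called. For 81 of them (0.575% of those tested) the antibody effect was higher in CD8 cells, and for 32 (0.227%) it was lower in CD8 cells. Differences ran from 0.75 to 6.21 (log2) in the first set, with a median of 1.34, and from -0.73 to -6.76 in the second, with a median of -1.37. Over all genes tested the median difference was 0.003. A further 111 genes had an adjusted p from 0.05 to 0.1, and 1721 had an unadjusted p under 0.05. Leaving out 1 library at a time gave 49 to 108 calls. The count stayed within 1.5 times of 113 only without treated CD8 replicate 3, untreated CD4 replicate 1 or treated CD4 replicate 2, and 44 of the 113 genes were called in all 12 of those fits. Without the 2 libraries rich in ribosomal-like counts, 29 genes were called, all among the 113.

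A difference of this kind can come from either cell type, so the called genes were sorted by which of the separate effects was itself called. In CD8 cells 1941 genes (13.8%) were called between treated and untreated libraries, 8.25% up and 5.53% down. In CD4 cells 20 (0.142%) were called, 0.0852% up and 0.0568% down. The median standard error (SE) of the effect was 0.25 in both cell types. Spread was estimated per gene over all groups together, so this likeness does not show that both cell types were measured equally well. At an unadjusted p under 0.05 the CD4 effect counted 1590 genes. Leaving out 1 library gave 0 to 106 CD4 calls, with 0 without replicate 1 of untreated or of treated CD4 cells, 2 without treated CD4 replicate 2 and 106 without treated CD4 replicate 3, and 919 to 2030 CD8 calls, the lowest without treated CD8 replicate 1. The CD8 count was 131 with the mean log levels of melanoma and macrophage markers as covariates. It was 1002 without the 2 libraries rich in ribosomal-like counts. The CD4 count was 5 and 1 in the same fits. The sorting that follows rests on these calls. Among the 113 genes, 104 had a called effect in CD8 cells alone, of which 77 had the higher and 27 the lower effect in CD8 cells. An effect in CD4 cells alone was called for 3 genes, effects in the same direction for 1, effects in opposite directions for 1, and neither effect for 4. The size of the CD4 effect was under 0.3 (log2) for 67 of the 113, and the CD8 effect was the larger in size for 105. The 81 genes had a median CD8 effect of 1.39 and a median CD4 effect of -0.01, and the 32 genes medians of -1.28 and 0.19. The treated CD8 libraries did not overlap the untreated ones for 79 of the 81 and 30 of the 32, and for 44.1% of all genes tested.

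**Figure D1:**
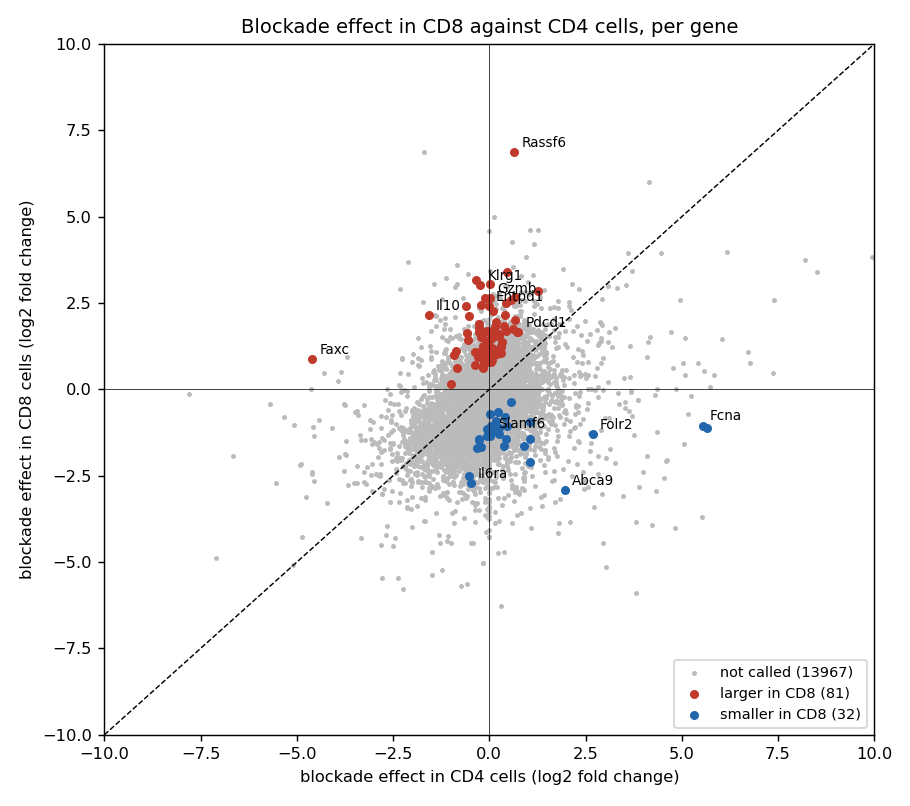
Each point is 1 of 14080 genes, with the log2 fold change with antibodies in CD4 cells on the x axis and in CD8 cells on the y axis, and the dashed line marks equal effects. Red points (81) and blue points (32) are the called differences, and most lie close to the vertical line of no CD4 effect, with Il10, Folr2, Fcna and Faxc to the sides.

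Called in CD8 cells did not mean absent from CD4 cells. Of the 1162 genes called up with antibodies in CD8 cells, 949 had a CD4 effect of the same sign, with medians of 0.74 in CD8 and 0.20 in CD4 cells, and for 79 the difference itself was called. Of the 779 called down in CD8 cells, 647 had the same sign in CD4 cells, with medians of -1.38 and -0.35, and for 27 the difference was called. Most genes called in CD8 cells were therefore not shown to respond differently in CD4 cells. Of the 20 genes called in CD4 cells, 11 were also called in CD8 cells in the same direction. Across genes, which are not independent replicates, the 2 effects had a Pearson r of 0.35, and of 0.475 over the 11080 genes that reached 5 CPM in the mean of some group. No library is shared between the effects.

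Of the 113 genes, 31 stood in at least 1 of the 36 gene lists examined and 82 in none. A core of 15 was called in all 12 fits that left out 1 library and in all 12 other settings: Entpd1, Ccl4, Cd244a, Klrg1, Ctla4, Slamf6, Il10, Il10ra, Lgals1, Glrx, Fgl2, Adap1, Emb, Abcg1 and 1 processed pseudogene. The symbols from Il10ra onward lie outside the naming rule and are listed because of these calls. Il10ra, the interleukin 10 receptor chain through which the cytokine restrains T cells, was at 154, 202 and 166 CPM in untreated and 566, 530 and 481 in treated CD8 libraries, and at 241, 267 and 252 and 285, 326 and 296 in CD4 libraries. Its difference was 1.34 ± 0.18 (adjusted p = 0.000652, edgeR). Lgals1, which encodes the lectin galectin 1, differed by 1.29 ± 0.20 (adjusted p = 0.00261). On the other side, Abcg1, a cholesterol exporter, differed by -1.26 ± 0.22 (adjusted p = 0.00504) and Emb, an adhesion protein, by -1.09 ± 0.17 (adjusted p = 0.00301).

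Inhibitory receptors and genes of exhausted T cells held the most calls of the lists examined. Of 23 tested members, 9 were called with the higher effect in CD8 cells and 0 with the lower, a share of 39.1% beside 0.803% over all genes, and the list's median difference was 0.92. The 9 were Entpd1, Cd244a, Ctla4, Id2, Havcr2, Cd38, Lag3, Pdcd1 and Prdm1. They were called up with antibodies in CD8 cells, and in CD4 cells only Pdcd1 was called. The count was 4 without the 2 libraries rich in ribosomal-like counts, and 4 to 9 when 1 library was left out, falling to 5 or fewer in 7 of the 12 fits. It was 3 with the mean log levels of melanoma and macrophage markers as covariates.

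Entpd1 (ENSMUSG00000048120, chr19:40612366-40741602 on GRCm38) encodes CD39, which breaks down extracellular ATP and marks exhausted CD8 cells and regulatory T cells. Untreated CD8 libraries had 19.2, 40.4 and 30.9 CPM and treated ones 167, 164 and 147. CD4 libraries had 130, 159 and 146 CPM without and 133, 154 and 145 with antibodies. All CD8 libraries with antibodies stood above all those without, up to the level that CD4 cells held with or without treatment, where the groups overlapped. Its difference was 2.42 ± 0.25 (log2 ± SE, adjusted p = 5.3e-05, edgeR), the smallest adjusted p of all genes.

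Cd244a (chr1:171559193-171609746) encodes 2B4, a SLAM family receptor that can activate or inhibit. It was at 20.6, 30.1 and 25.5 CPM in untreated and 115, 110.3 and 108 in treated CD8 libraries. In CD4 cells it was at 14.8, 16.3 and 16.6 and 8.8, 14.7 and 10.7 CPM. The treated CD4 libraries lay below the untreated ones without a called effect, and the difference was 2.66 ± 0.32 (adjusted p = 0.00015, edgeR).

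Ctla4 (chr1:60887000-60915832) encodes one of the antibody targets. CD8 libraries had 116, 128 and 106 CPM untreated and 393, 384 and 338 treated, and CD4 libraries had 1343, 1321 and 1432 and 1204, 872 and 1313. The treated CD8 level thus remained well below every CD4 library, although the CD8 effect exceeded the CD4 effect by 1.94 ± 0.25 (adjusted p = 0.000394, edgeR).

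Pdcd1 (chr1:94038305-94052553), which encodes PD-1, another antibody target, was the one gene called up in both cell types and called as different between them. It stood at 250.1, 277 and 232 CPM in untreated and 836, 819.6 and 749 in treated CD8 cells. In CD4 cells it stood at 261, 231 and 277 and 421, 525 and 344 CPM. Neither pair of groups overlapped, and untreated CD8 and CD4 cells began at a like level. The effect was 1.66 in CD8 and 0.75 in CD4 cells, a difference of 0.92 ± 0.20 (adjusted p = 0.0345, edgeR), called in 3 of the 12 fits that left out 1 library.

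Havcr2, which encodes TIM-3, was at 56.1, 122 and 73.8 CPM in untreated and 607, 605 and 408 in treated CD8 cells. CD4 libraries held 71.5, 77.7 and 70.3 CPM and, with antibodies, 106, 163 and 82.4, the highest being treated CD4 replicate 2, the CD4 library with the most Cd8a. The difference was 2.02 ± 0.39 (adjusted p = 0.0215, edgeR) and 2.32 without that library. Lag3, whose product binds MHC class II, was at 24.1, 37.4 and 28.7 CPM in untreated and 117, 114 and 79.6 in treated CD8 cells, and at 39.4, 53.9 and 44.9 and 35.8, 49.9 and 31.3 in CD4 cells. Its CD4 groups overlapped while its CD8 groups did not, and the difference was 2.04 ± 0.42 (adjusted p = 0.0286, edgeR). Both genes lost their call in most fits that left out 1 library, Havcr2 keeping it in 5 and Lag3 in 4 of the 12.

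Other members of the list had no called difference. Tigit, an inhibitory receptor for CD155, differed by 1.46 ± 0.67 (adjusted p = 0.398, edgeR), and Tox, a transcription factor of exhaustion, by 0.07 ± 0.39 (adjusted p = 0.975). Cxcr6, a chemokine receptor of tissue-resident cells, was called up in both cell types, by 2.19 in CD8 and 1.17 in CD4 cells, with a difference of 1.02 ± 0.25 (adjusted p = 0.0676). Btla, an inhibitory receptor that less advanced cells carry, had a difference of -1.03 ± 0.26 (adjusted p = 0.0708).

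Cytotoxic effector genes formed the next set. Of 26 tested members, 8 were called with the higher effect in CD8 cells and 0 with the lower (30.8%, beside 0.803% over all genes), and the median difference was 0.71. The 8 were Gzmb, Gzmk, Ccl4, Ccl5, Klrg1, Nkg7, Fasl and Cst7. The count was 4 without the 2 libraries rich in ribosomal-like counts and 2 with the melanoma and macrophage covariates. Leaving out 1 library gave 4 to 9, and it moved by over 1.5 times in all those fits but the one without untreated CD4 replicate 1.

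Gzmb (ENSMUSG00000015437, chr14:56258856-56262260) encodes granzyme B, a protease that kills target cells. CD8 libraries had 465, 1111 and 680.5 CPM without and 5440, 5121 and 3438 with antibodies. CD4 libraries had 679, 1009 and 836 CPM without and 898, 699 and 945 with antibodies. Untreated cells of both types thus overlapped in granzyme B, and with antibodies every CD8 library stood above every CD4 library. The difference was 2.62 ± 0.36 (adjusted p = 0.002, edgeR).

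Ccl4 (chr11:83662584-83664683), an inflammatory chemokine, was at 91.3, 172 and 135 CPM in untreated and 432, 411 and 403 in treated CD8 libraries. CD4 libraries had 118, 154 and 104 and 75.8, 95.9 and 82.9 CPM. The CD8 levels were higher with antibodies and the CD4 levels somewhat lower, without a called CD4 effect, and the difference was 2.22 ± 0.26 (adjusted p = 0.00015, edgeR). Ccl5, another chemokine of the CC family, had a smaller difference of 0.95 ± 0.22 (adjusted p = 0.0466), called in 1 of the 12 fits that left out a library.

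Klrg1, an inhibitory receptor of short-lived effector CD8 cells and of a subset of regulatory T cells, was at 1.88, 2.42 and 4.75 CPM in untreated and 24.3, 22.3 and 24.4 in treated CD8 libraries. CD4 libraries had 197, 192 and 219 and 199.8, 127 and 188 CPM. The treated CD8 libraries lay close together and still below all CD4 libraries, and the difference was 3.26 ± 0.36 (adjusted p = 0.00015, edgeR). Nkg7, a granule membrane protein, was at 240.1, 247 and 229.9 CPM in untreated and 530.2, 545 and 493 in treated CD8 cells, and at 109.9, 127 and 129 and 163, 127 and 145 in CD4 cells. It had a difference of 0.87 ± 0.16 (adjusted p = 0.00718).

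Not all of the killing machinery was called. Prf1, which encodes perforin, was at 213, 505 and 255 CPM in untreated and 1655, 1547 and 1054 in treated CD8 libraries, and at 71.5, 80.4 and 61.8 and 67.2, 176 and 103 in CD4 libraries. The single high value among treated CD4 libraries was that of replicate 2, and the difference of 1.46 ± 0.60 had an adjusted p of 0.341 (edgeR). Gzma, another granzyme, differed by 1.11 ± 0.47 (adjusted p = 0.345). Ifng, the gene of interferon gamma, was at 184, 499 and 379 and 771, 824 and 755 CPM in CD8 cells, and at 37.6, 47.6 and 72.5 and 149, 192 and 64.1 in CD4 cells. Its estimated effects were alike in size, 1.15 and 1.37, with neither called and a difference of -0.22 ± 0.59 (adjusted p = 0.939). Tbx21, which encodes the effector transcription factor T-bet, differed by 0.84 ± 0.30 (adjusted p = 0.234).

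**Figure D2:**
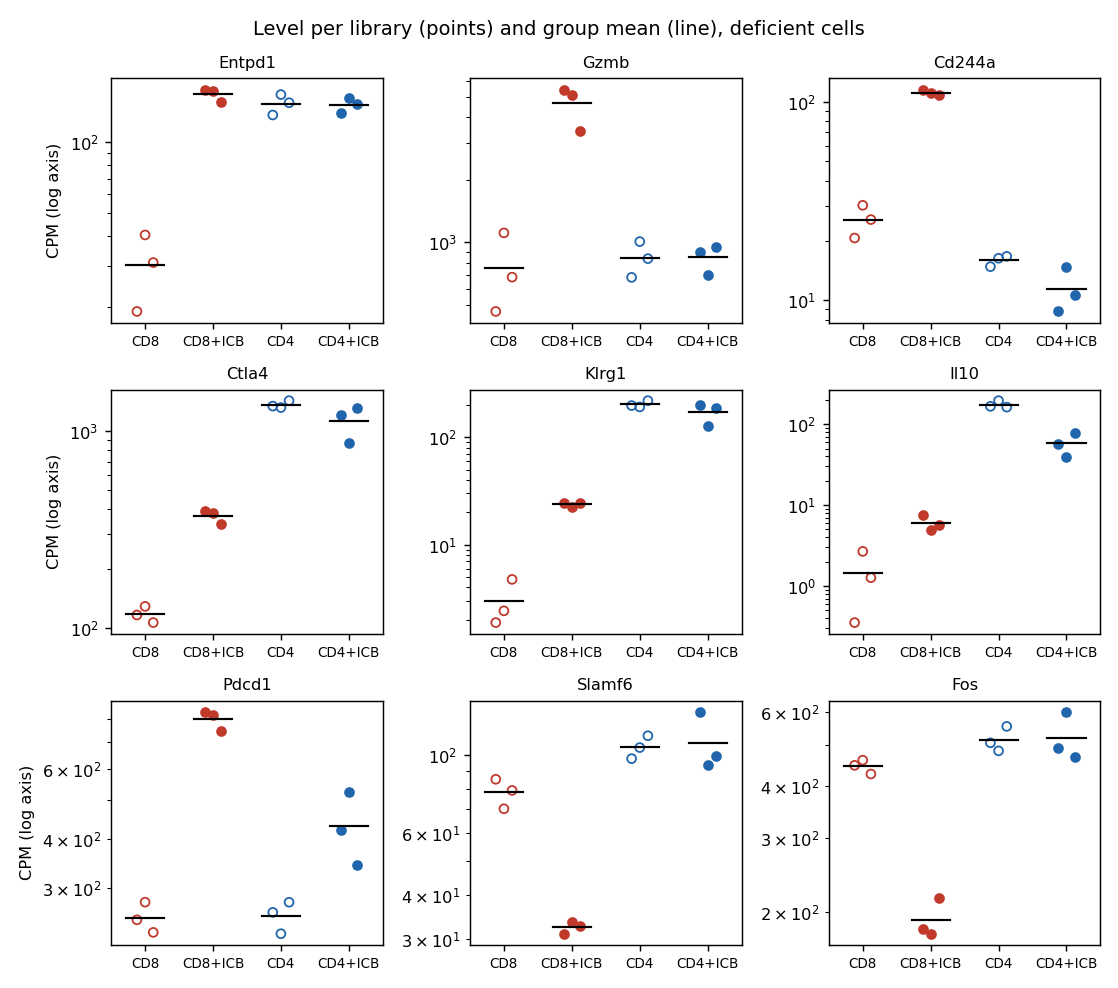
Level in CPM on log axes that do not start at 0, with 1 point per library and a line at the group mean, for untreated (open) and antibody-treated (filled, +ICB) deficient CD8 (red) and CD4 (blue) cells. Entpd1, Gzmb, Cd244a, Ctla4 and Klrg1 are higher in all treated CD8 libraries with overlapping or slightly lower CD4 levels, Il10 moves in opposite directions, Pdcd1 is higher in both, and Slamf6 and Fos are lower in treated CD8 libraries with overlapping CD4 groups.

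Promoter sequences of genes with the higher effect in CD8 cells were searched for short motifs of T cell transcription factors, on both strands, in the window from 250 bases before to 50 after the RefSeq start. A RefSeq promoter (build GRCm38.p6) was found for 60 of the 81 genes and for 10103 of the 14080. The AP-1 motif TGANTCA was present in 12 of the 60 (20%) and in 4.83% of the 10103. The T-box motif AGGTGTGA, of the T-bet and Eomes family, was present in 4 (6.67%) and 0.851%, and the RUNX motif TGTGGT in 14 (23.3%) and 13%. The interferon-stimulated response element was found in 0 of the 60 and in 3.38% of the 10103, the NF-kB motif in 1.67% and 0.416%, and the TCF/LEF motif ATCAAAG in 3.33% and 2.52%. None of these patterns contains another. For the 23 of 32 genes with the lower effect that had a promoter, 1 held the AP-1 motif (4.35%), 4 the RUNX motif (17.4%), 2 the interferon element (8.70%) and 2 the TCF/LEF motif (8.70%). These shares are descriptions with no test, a match does not show binding, and the motifs were chosen with the called genes known. Among genes with the higher effect in CD8 cells and an AP-1 or T-box match, the 4 with the smallest adjusted p were chosen. Matches of the other motifs did not count in this choice. Their 250 bases before the start are shown 5′ to 3′ on the gene's strand, with AP-1 and RUNX matches in capitals. They lie at chr1:171558943-171559192 (plus strand), chr13:75839635-75839884 (plus), chr14:56262335-56262584 (minus) and chr5:21372423-21372672 (plus). The AP-1 match begins 122, 98, 58 and 16 bases before the start in turn, and Gzmb has RUNX matches beginning 93 and 34 bases before it, on either side of its AP-1 match.
Cd244a: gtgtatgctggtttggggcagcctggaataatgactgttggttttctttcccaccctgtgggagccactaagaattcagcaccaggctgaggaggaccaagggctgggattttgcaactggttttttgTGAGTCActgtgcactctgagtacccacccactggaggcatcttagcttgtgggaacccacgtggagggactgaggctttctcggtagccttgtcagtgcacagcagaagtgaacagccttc
Glrx: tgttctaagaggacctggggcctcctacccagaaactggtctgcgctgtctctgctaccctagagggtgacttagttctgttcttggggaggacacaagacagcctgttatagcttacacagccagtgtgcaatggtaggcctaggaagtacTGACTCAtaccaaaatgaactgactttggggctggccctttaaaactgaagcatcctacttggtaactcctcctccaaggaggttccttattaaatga
Gzmb: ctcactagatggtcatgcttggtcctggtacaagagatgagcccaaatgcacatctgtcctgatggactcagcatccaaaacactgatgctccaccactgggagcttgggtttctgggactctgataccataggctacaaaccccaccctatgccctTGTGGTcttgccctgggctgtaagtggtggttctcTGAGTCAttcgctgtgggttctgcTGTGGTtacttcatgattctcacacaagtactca
Fgl2: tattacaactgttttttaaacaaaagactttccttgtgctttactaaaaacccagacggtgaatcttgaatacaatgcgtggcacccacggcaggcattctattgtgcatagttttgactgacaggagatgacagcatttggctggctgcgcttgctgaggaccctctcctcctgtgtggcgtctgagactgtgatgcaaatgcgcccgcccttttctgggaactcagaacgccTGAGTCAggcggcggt
Glrx encodes glutaredoxin, which reverses protein glutathionylation, and Fgl2 a fibrinogen-like protein secreted by regulatory T cells. Their differences were 1.76 ± 0.23 (adjusted p = 0.000394, edgeR) and 1.73 ± 0.28 (adjusted p = 0.00379).

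Genes associated with regulatory T cells had a higher antibody effect in CD8 cells where called. Of 22 tested members, 4 were called higher (Klrg1, Ctla4, Il10 and Tnfrsf9) and 0 lower (18.2%, beside 0.803%), with a median difference of 0.72. The count was 4 or 5 in every fit that left out 1 library. Foxp3, the defining transcription factor, was at 0, 0.382 and 0 CPM in untreated and 0, 0 and 1.36 in treated CD8 libraries, and at 63.5, 60.7 and 79.9 and 63.6, 73.1 and 62.1 in CD4 libraries. It was thus at or near 0 in CD8 cells, the CD4 groups overlapped, and the difference was not called (adjusted p = 0.64, edgeR). Ikzf2, which encodes Helios, had a difference of -0.84 ± 0.36 (adjusted p = 0.345), and Il2ra, the high-affinity interleukin 2 receptor chain, one of 0.85 ± 0.62 (adjusted p = 0.645).

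Il10 (chr1:131019845-131024974), the gene of an immunosuppressive cytokine made by regulatory and other effector cells, was the one gene with opposite called effects. In CD8 libraries it was at 0.353, 2.68 and 1.27 CPM without and 7.57, 4.96 and 5.65 with antibodies. In CD4 libraries it was at 166, 195 and 162 CPM without and 57.5, 38.8 and 76.8 with antibodies. Neither pair of groups overlapped, and all CD4 libraries exceeded all CD8 libraries under both conditions. The effect was 2.15 in CD8 cells (adjusted p = 0.00433, edgeR) and -1.58 in CD4 cells (adjusted p = 0.0397), and the difference was 3.73 ± 0.53 (adjusted p = 0.00236). The difference was called in all 12 fits that left out 1 library and in all 12 other settings tried. The opposite effects were both called in 5 of those 12 fits and in 10 of the 12 settings, with the CD4 effect from -1.36 to -1.81 and the CD8 effect from 1.65 to 3.03 when 1 library was left out.

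Tnfrsf9, which encodes the costimulatory receptor 4-1BB, was at 228, 311 and 225 CPM in untreated and 879.5, 889 and 695 in treated CD8 cells. CD4 libraries held 794, 882 and 1001 and 996, 830.4 and 983 CPM. The treated CD8 libraries came within the range of the CD4 ones except for the lowest, and the difference was 1.62 ± 0.28 (adjusted p = 0.00586, edgeR). Icos, a costimulatory receptor of regulatory and follicular helper cells, differed by 1.13 ± 0.29 and was not called (adjusted p = 0.0753).

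Some called genes encode regulators of transcription, for which no list was made and no share is given. Id2, an inhibitor of E proteins that favours effector differentiation, was at 178, 219 and 233 CPM in untreated and 799, 796 and 665 in treated CD8 libraries. In CD4 libraries it was at 337, 398 and 448 and 541, 578 and 429 CPM. Untreated CD8 cells lay below untreated CD4 cells, treated CD8 cells lay above treated CD4 cells, and the difference was 1.45 ± 0.22 (adjusted p = 0.00221, edgeR). Irf8, an interferon regulatory factor used by effector CD8 cells as well as by myeloid cells, was at 175, 238 and 181 and 436, 424 and 389 CPM in CD8 cells and 269, 249 and 235 and 174, 255 and 221 in CD4 cells, with a difference of 1.28 ± 0.22 (adjusted p = 0.00504). Prdm1, which encodes Blimp-1, a repressor of the memory program, had a difference of 1.78 ± 0.38 (adjusted p = 0.0357). Nfil3 (1.25 ± 0.20, adjusted p = 0.00266) and Zbtb32 (1.73 ± 0.31, adjusted p = 0.00598), which encode transcriptional repressors of lymphocytes, are named after their values were seen. Arnt2, a bHLH-PAS factor, was at 0.588, 0.382 and 1.27 CPM in untreated and 3.1, 7.02 and 9.74 in treated CD8 cells, and at 33.7, 40.6 and 26 and 24.7, 28.3 and 26 in CD4 cells, a difference of 3.51 ± 0.59 (adjusted p = 0.00504).

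Further genes with the largest positive differences had varied roles. Ifitm1, an interferon-induced membrane protein, differed by 2.64 ± 0.44 (adjusted p = 0.00461, edgeR) and AA467197, a transcript that also hosts a microRNA, by 2.04 ± 0.36 (adjusted p = 0.00598). Camk2n1, an inhibitor of CaM kinase II, differed by 2.18 ± 0.39 (adjusted p = 0.00598) and Tmem163, a zinc transporter, by 2.15 ± 0.45 (adjusted p = 0.0236). Itgax, the CD11c integrin chain of dendritic cells that activated CD8 cells also carry, was at 17.9, 32.6 and 19.6 and 50.6, 43 and 55.6 CPM in CD8 cells, and at 29.4, 52.1 and 57.9 and 21.3, 27.4 and 27.4 in CD4 cells. Its difference was 1.97 ± 0.43 (adjusted p = 0.04), while the rest of the dendritic cell list had none called. Rassf6, a Ras-association family member, had no read in untreated CD8 libraries and 1.89, 2.48 and 1.78 CPM in treated ones, which is at least 14.4-fold higher when set against 3 counts over the untreated group. CD4 libraries had 2.72, 4.89 and 3.67 and 3.92, 10.5 and 3.91 CPM of it. In the glycolysis list 1 of 20 tested genes was called (5%), and in the cholesterol synthesis list 1 of 21 (4.76%), beside 0.803% over all genes. Slc2a3, the glucose transporter GLUT3, differed by 1.14 ± 0.26 (adjusted p = 0.0412) and Hmgcs1, an enzyme of cholesterol synthesis, by 0.80 ± 0.17 (adjusted p = 0.0286). With 1 library left out, Itgax, Slc2a3 and Hmgcs1 were each called in 2 of the 12 fits, Rassf6 in 3 and Tmem163 in 4. The hypoxia list had 0 of 20 called.

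Naive and memory genes lay on the other side. Of 19 tested members 2 were called with the lower effect in CD8 cells and 0 with the higher (10.5%, beside 0.803%), the median difference was -0.75, and 18 of the 19 differences were negative, where 7005 of all 14080 were. Slamf6 (chr1:171917515-171953170), a SLAM receptor that marks the self-renewing state of tumor CD8 cells, was at 85.2, 70.2 and 79.2 CPM in untreated and 31, 33.5 and 32.7 in treated CD8 libraries. CD4 libraries had 97.5, 105 and 113 CPM without and 132, 93.2 and 99.1 with antibodies. The CD8 groups did not overlap and the CD4 groups did, and the difference was -1.32 ± 0.19 (adjusted p = 0.00157, edgeR). Il6ra, the interleukin 6 receptor, was at 53.1, 44.1 and 58.4 and 8.51, 5.37 and 8.59 CPM in CD8 cells and at 51.9, 44.9 and 33.6 and 29.4, 31 and 33.4 in CD4 cells, a difference of -2.23 ± 0.45 (adjusted p = 0.0236) that was called in 3 of the 12 fits that left out 1 library.

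In CD8 cells 15 members of the list were called down with antibodies, and the median effect of the list was -1.46 in CD8 and -0.74 in CD4 cells. Tcf7, which encodes TCF1, was at 267, 214 and 220.3 CPM in untreated and 55.6, 52.5 and 70.2 in treated CD8 libraries. In CD4 libraries it was at 181, 115 and 118 and 95.5, 53.5 and 70.6 CPM. The treated libraries lay below the untreated ones in both cell types, and the difference of -1.06 ± 0.67 was not called (adjusted p = 0.575, edgeR). S1pr1, a receptor for exit from tissue, differed by -1.17 ± 0.39 (adjusted p = 0.195). Klf2, a transcription factor that regulates it, differed by -1.08 ± 0.33 (adjusted p = 0.157), Ccr7, a lymph node homing receptor, by -0.31 ± 0.43 (adjusted p = 0.846), and Il7r, the interleukin 7 receptor, by -0.52 ± 0.43 (adjusted p = 0.703).

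Of 25 tested genes induced through the T cell receptor, 1 (Tnfrsf9) was called higher and 2 lower in CD8 cells (12%, beside 0.803%), with 12 positive and 13 negative differences and a median of -0.03. The count of lower genes was 0 to 2 when 1 library was left out. Fos, a subunit of AP-1, was at 447, 460 and 426 CPM in untreated and 182, 177 and 216 in treated CD8 libraries, and at 506, 484 and 554 and 491, 600.1 and 468 in CD4 libraries. The CD8 groups were far apart and the CD4 groups overlapped, with a difference of -1.23 ± 0.24 (adjusted p = 0.0127, edgeR). Fos is also a gene that tissue dissociation induces, and it was the 1 call among 20 tested members of the dissociation list, whose median difference was 0.01. Cd69, an early activation and retention receptor, was at 445, 491 and 427 and 365, 352 and 343 CPM in CD8 cells, and at 258, 258 and 312 and 475, 359.9 and 378 in CD4 cells. Treated libraries lay below untreated ones in CD8 and above them in CD4 cells, neither effect was called, and the difference was -0.92 ± 0.21 (adjusted p = 0.0402), called in 4 of the 12 fits that left out 1 library.

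Other genes with the lower effect in CD8 cells encode receptors, an adhesion protein, an immunoglobulin chain and an enzyme. Tnfrsf26, a TNF receptor family member, was at 83.1, 67.9 and 69.4 and 22.5, 19.4 and 25.2 CPM in CD8 cells and 53.7, 53.4 and 44.6 and 40.7, 38.5 and 42.6 in CD4 cells, a difference of -1.38 ± 0.24 (adjusted p = 0.00612, edgeR). Pecam1, the adhesion receptor CD31 that recently activated T cells lose, differed by -1.08 ± 0.20 (adjusted p = 0.00718) and Il9r, the interleukin 9 receptor, by -1.89 ± 0.43 (adjusted p = 0.0428). Ighm, the immunoglobulin mu chain, was at 242, 212 and 238 and 82.2, 81 and 108 CPM in CD8 cells, and at 268, 205 and 311 and 294, 204 and 296 in CD4 cells, with a difference of -1.37 ± 0.22 (adjusted p = 0.00333). Tnfsf8 (CD30 ligand) and St6gal1 (a sialyltransferase) had differences of -2.50 ± 0.50 (adjusted p = 0.0288) and -2.54 ± 0.44 (adjusted p = 0.00953). In both, treated CD4 replicate 2 was the highest of the 12 libraries, at 186 and 233 CPM, and without it the differences were -1.99 and -2.003 (log2). Il9r and Tnfsf8 were each called in 3 of the 12 fits that left out 1 library. Ighm was the only call among 3 tested B and plasma cell markers, and Pecam1 among 3 tested endothelial markers (33.3% each, beside 0.803%). With the melanoma and macrophage covariates Ighm was not called (-1.31, adjusted p = 0.0638, edgeR), while Pecam1 was (-1.49, adjusted p = 0.0045). The part of other cells in either was not tested.

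Of 35 tested genes of the interferon gamma response, 1 (Irf8) was called higher and 2 (Tgtp1 and Tgtp2) lower in CD8 cells (8.57%, beside 0.803%), with a median difference of -0.28. The count of lower genes was 0 to 2 when 1 library was left out, and stayed at 2 only without untreated CD8 replicate 1 or treated CD4 replicate 2. Tgtp1 and Tgtp2 are neighbouring, nearly identical GTPase genes whose reads can be shared, so their differences of -1.54 ± 0.33 (adjusted p = 0.0264, edgeR) and -1.21 ± 0.28 (adjusted p = 0.0472) are uncertain as separate results. Of 32 tested genes of the type I response, 0 were called by edgeR or limma voom and 2 (lower in CD8) by DESeq2. Of the 32, 11 had an unadjusted p under 0.05, and 28 differences were negative, with a median of -0.63. Among all 14080 genes, DESeq2 called 355 (2.52%), 1721 had an unadjusted p under 0.05 and 7005 differences were negative. Irf7 was at 102, 143 and 133 and 101, 105 and 106 CPM in CD8 cells, and at 122, 218 and 188 and 256, 203 and 217 in CD4 cells, a difference of -0.63 ± 0.27 (adjusted p = 0.345). Irf1 differed by -0.57 ± 0.18 (adjusted p = 0.16) and Cd274, which encodes PD-L1, by -0.69 ± 0.33 (adjusted p = 0.405). Socs1 and Socs3, feedback inhibitors of cytokine signals, differed by -0.73 ± 0.21 (adjusted p = 0.113) and -1.08 ± 0.30 (adjusted p = 0.109).

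Cell division genes were called up in CD8 cells without a called difference. For the counts that follow, the values among all 14080 genes were 2.52% called by DESeq2, 1721 at an unadjusted p under 0.05 and 7075 positive differences. In the list of G1 to S genes, 23 of 28 tested were called up in CD8 cells and 27 of 28 differences were positive (median 0.51), but 0 differences were called by edgeR or limma voom and 2 by DESeq2, with 14 at an unadjusted p under 0.05. In the list of G2 and mitosis genes, 0 of 28 were called by edgeR or limma voom and 1 by DESeq2, with 9 at an unadjusted p under 0.05 and a median of 0.49. Mki67, the proliferation marker, was at 459, 460.3 and 590.5 and 878, 807 and 815 CPM in CD8 cells, and at 477, 439 and 453 and 627, 737 and 657 in CD4 cells. Treated libraries lay above untreated ones in both cell types, and the difference was 0.17 ± 0.28 (adjusted p = 0.882, edgeR). All 28 tested genes of oxidative phosphorylation had positive differences (median 0.35), again with 0 called by edgeR, limma voom or DESeq2 and 9 at an unadjusted p under 0.05. Reported miR-155 targets, in groups that are all labelled as deficient, had 0 of 29 called by edgeR or limma voom and 2 (lower in CD8) by DESeq2, with 6 at an unadjusted p under 0.05 and a median of -0.24.

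**Figure D3:**
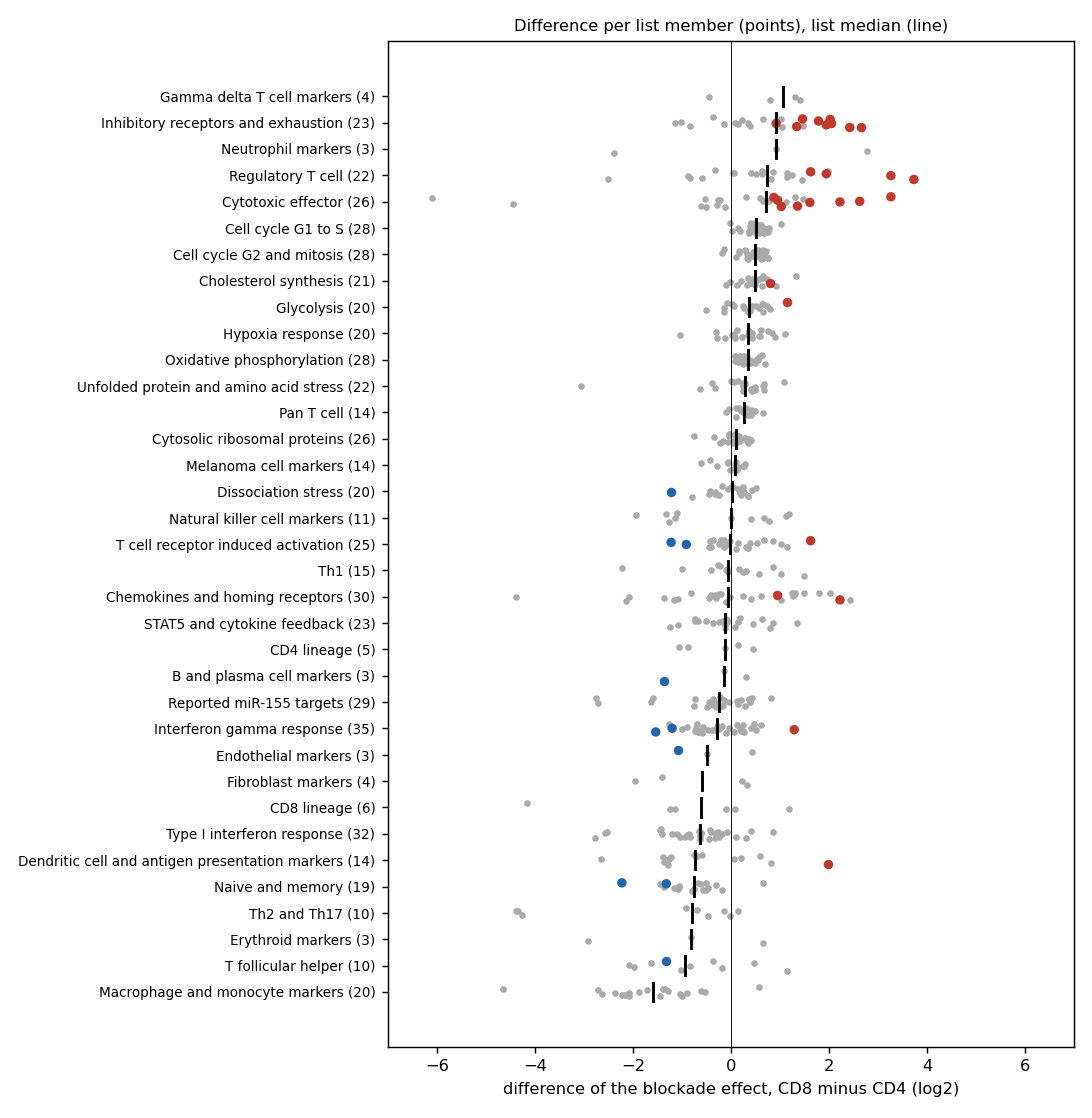
Difference of the antibody effect (CD8 minus CD4, log2, x axis) for tested members of 35 lists, with the list median as a black line. Called genes are in red (higher in CD8) or blue (lower), and brackets give the number tested. The x axis ends before the lowest difference, -9.72 in the Th2 and Th17 list, which is not shown. The inhibitory receptor, regulatory and cytotoxic lists hold most of the red points, and the macrophage list has the most negative median, -1.59, with no called member.

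For 3 genes only the CD4 effect was called. Folr2, folate receptor beta, a macrophage gene, was at 4.15, 6.11 and 5.08 CPM in untreated and 35.5, 29.8 and 33 in treated CD4 libraries. CD8 libraries had 1.18, 3.31 and 3.33 and 0.86, 0 and 1.57 CPM. The CD4 groups were far apart, and the difference was -3.98 ± 0.66 (adjusted p = 0.00524, edgeR). Fcna, ficolin A, a lectin of macrophages, was at 0.389, 0 and 0.282 CPM in untreated and 16, 5.71 and 10.2 in treated CD4 libraries. It was at or below 0.826 CPM in all CD8 libraries. Its difference was -6.59 ± 1.36 (adjusted p = 0.0215, edgeR), called in 6 of the 12 fits that left out 1 library. Slc30a4, a zinc exporter outside the naming rule, was lower with antibodies in CD4 cells, with a difference of 1.16 ± 0.27 (adjusted p = 0.0476). For Mertk and Abca9 the only called effect was the one in CD8 cells (-2.12 and -2.93), beside uncalled CD4 effects of 1.06 and 1.96. In floxed mice they were at 67 and 122 CPM in CD4 cells and at 1.6 and 1.2 in CD8 cells. Summed macrophage markers there were at 19100 CPM in CD4 and 1490 in CD8 cells. With the melanoma and macrophage covariates Mertk was not called (-1.66, adjusted p = 0.309, edgeR), while Abca9 was (-2.96, adjusted p = 0.026). Whether either signal came from macrophages was not tested. Mertk, a receptor for the uptake of dying cells, was at 3.06, 4.21 and 6.33 and 0.516, 1.65 and 1.36 CPM in CD8 cells, and at 5.32, 7.74 and 5.36 and 8.54, 15.6 and 15.1 in CD4 cells, a difference of -3.17 ± 0.57 (adjusted p = 0.00631). Abca9, a lipid transporter, was at 4.59, 3.44 and 6.97 and 0.516, 0.413 and 0.838 CPM in CD8 cells, and at 4.8, 14.8 and 12.7 and 25.2, 61.9 and 38.6 in CD4 cells, a difference of -4.88 ± 0.84 (adjusted p = 0.00953). The 4 genes called with neither effect called were Cd69, Mcoln2 (-2.02), Faxc (5.48) and the pseudogene Klra13-ps (-6.76), the last 2 outside the naming rule. Mcoln2 was called in 1 of the 12 fits that left out 1 library.

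Markers of T cells and of other cells moved with some of these results. Pan T cell markers summed to 4010 ± 135 CPM in untreated and 5970 ± 125 in treated CD8 libraries (SD, n = 3). In CD4 libraries they summed to 5020 ± 403 and 6020 ± 353 CPM. Of 14 tested, 12 had a positive difference, where 7075 of all 14080 did, with a median of 0.26 and 0 called. CD8 lineage markers were at 1620 and 2610 CPM in CD8 libraries, with a median difference of -0.62. A change in T cell share was not tested. The summed level of 20 macrophage and monocyte markers was 2770 ± 752 CPM in untreated and 1360 ± 16.6 in treated CD8 libraries (SD, n = 3), and 4540 ± 925 and 4250 ± 983 in CD4 libraries. It was lower in all treated CD8 libraries, with an exact two-sided permutation p of 0.10, the smallest that 3 against 3 can give, and of 0.60 in CD4 cells. In that list 14 of 20 genes were called down in CD8 cells and the median difference was -1.59. There 0 differences were called by edgeR or limma voom and 6 (lower in CD8) by DESeq2, with 12 at an unadjusted p under 0.05. DESeq2 called 2.52% of all genes, and 1721 of 14080 had an unadjusted p under 0.05. Dendritic cell and antigen presentation markers summed to 859 to 1650 CPM in untreated and 307 to 531 in treated CD8 libraries, and to 3500 to 5420 and 2360 to 3700 in CD4 libraries. Melanoma markers summed to 1420 to 3220 CPM in untreated and 389 to 1760 in treated CD8 libraries, and to 1890 to 4440 and 466 to 2040 in CD4 libraries, with effects of like size in both (medians of -1.55 and -1.62) and a median difference of 0.08. Natural killer cell markers, 11 tested, summed to 704 to 834 CPM in untreated and 1040 to 1300 in treated CD8 libraries (exact two-sided permutation p = 0.10) and to 395 to 593 and 332 to 480 in CD4 libraries (exact p = 0.20). Of the 11, 3 were called up and 3 down in CD8 cells, with a median CD8 effect of -0.26. Gzma, which also stands in the cytotoxic list, was among those up, by 2.02 (adjusted p = 0.000616, edgeR), from a mean of 41.7 to 169 CPM. Eomes and Klrk1 of this list also stand in the CD8 lineage list, so the sum is not particular to natural killer cells. Ncr1 and Klrb1c, natural killer cell receptors, were not called in CD8 cells, at -0.26 (adjusted p = 0.894, edgeR) and -1.20 (adjusted p = 0.0802). Cd8a was higher in all treated CD4 libraries (1.83, 17.4 and 4.96 CPM) than in the untreated ones (0.259, 0.136 and 0.282). Folr2 and Fcna were called up in CD4 cells, where the macrophage sums of treated and untreated libraries overlapped. In floxed mice Folr2 was at 113 CPM in CD4 and 0.631 in CD8 cells, and Fcna at 18 and 0.791. Macrophage sums there were at 19100 and 1490 CPM. Whether macrophages gave either signal was not tested. With the mean log levels of melanoma and macrophage markers, not their sums, as covariates, 42 genes were called, 30 of them among the 113. Entpd1, Ccl4, Cd244a, Klrg1, Ctla4, Slamf6 and Il10 were among the 30, while Gzmb, Pdcd1 and Folr2 were not. The difference of Gzmb was 2.69 with the covariates (adjusted p = 0.075, edgeR) beside 2.62 without them, that of Pdcd1 0.57 (adjusted p = 0.481) beside 0.92, and that of Folr2 -2.6 (adjusted p = 0.132) beside -3.98. The part of other cells in the differences was not tested further.

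**Figure D4:**
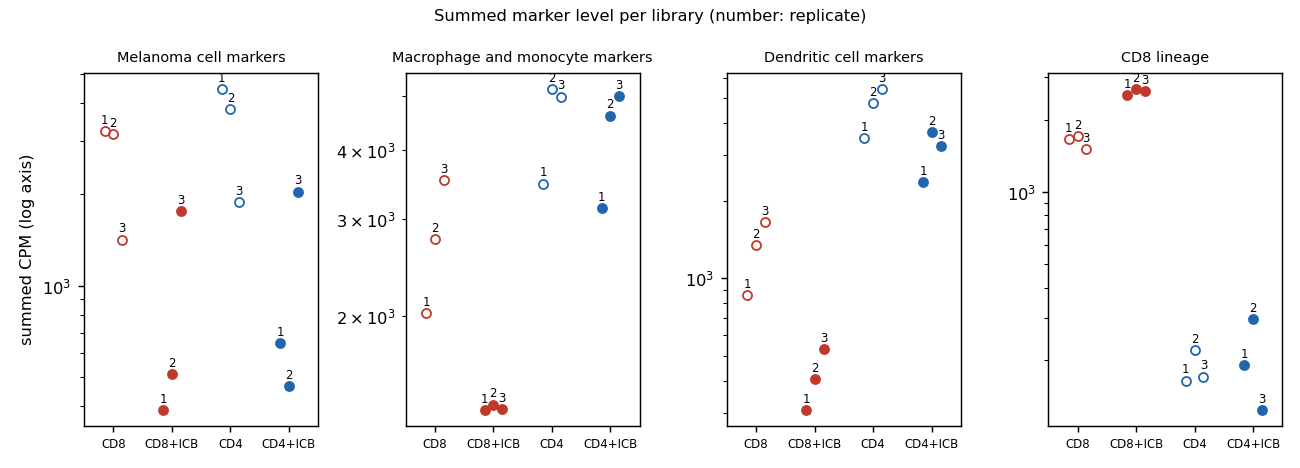
Summed CPM of 4 marker lists per library (log axes that do not start at 0, numbers give the replicate) in untreated (open) and treated (filled, +ICB) CD8 (red) and CD4 (blue) cells. Macrophage and dendritic cell sums are lower in all treated CD8 libraries, the macrophage sums of CD4 cells overlap, and melanoma sums overlap in both cell types.

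The same contrast can be read as a change of the gap between CD8 and CD4 cells. Without antibodies 2196 genes (15.6%) were called between the cell types, and with antibodies 2870 (20.4%). Of the 81 genes with the higher effect in CD8 cells, 30 were called as higher in CD4 cells before and were no longer called between cell types after, among them Entpd1, Tnfrsf9 and Prdm1. For 26, no gap was called before and CD8 cells were higher after, among them Gzmb, Havcr2, Lag3, Pdcd1, Ccl4 and Irf8. A further 12 were called as higher in CD4 cells both times, among them Ctla4, Klrg1, Il10 and Arnt2, and 9 passed from higher in CD4 to higher in CD8 cells, among them Id2, Itgax, AA467197 and Camk2n1. The other 4 were higher in CD8 cells both times: Ccl5, Cd244a, Nkg7 and Ybx3, the last outside the naming rule.

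Of the 32 genes with the lower effect in CD8 cells, 22 had no called gap before and were higher in CD4 cells after, among them Fos, Ighm, Il6ra, Tnfsf8 and Folr2. Slamf6 and Pecam1 were among 5 that were higher in CD4 cells both times. For 3 genes, Cd69, Mcoln2 and Slc11a2, CD8 cells were higher before with no called gap after, Tnfrsf26 passed from higher in CD8 to higher in CD4 cells, and Klra13-ps was higher in CD8 cells both times. Slc11a2, an iron transporter, is outside the naming rule. A gap that was not called does not show equal levels.

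**Figure D5:**
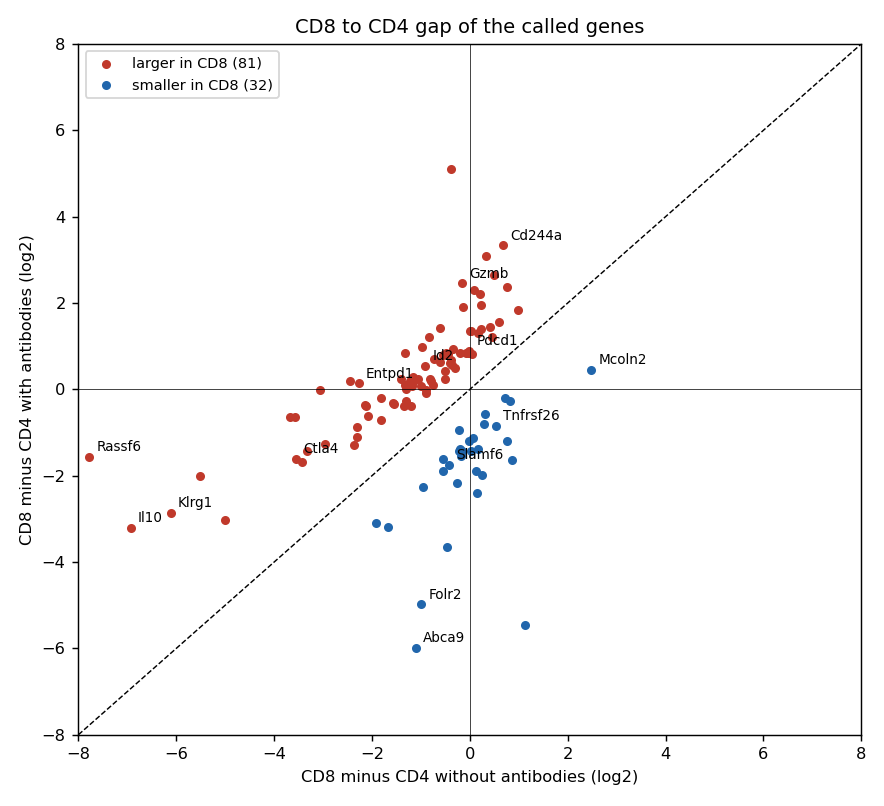
For the 113 called genes, the CD8 minus CD4 gap (log2) without antibodies is on the x axis and with antibodies on the y axis, with red for the 81 genes with the higher and blue for the 32 with the lower effect in CD8 cells, and the dashed line marks an equal gap. Red points lie above the line by definition, and they run from genes still lower in CD8 cells (Ctla4, Klrg1, Il10) past those that reach the CD4 level (Entpd1) to those higher in treated CD8 cells (Gzmb, Cd244a).

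Levels in floxed mice, which enter no test here, give a reference for some of these genes. Entpd1 was at 147 ± 16.5 CPM (SD, n = 3) in floxed CD8 and 218 ± 10.4 in floxed CD4 cells. Gzmb was at 2551 ± 229 and 855 ± 80.2 CPM, Pdcd1 at 811 ± 111 and 285 ± 33.6, and Il10 at 3.77 ± 0.895 and 183 ± 43.6. Slamf6 was at 36 ± 1.1 and 89.9 ± 8.03 CPM. For Entpd1, Pdcd1 and Slamf6, the mean of treated deficient CD8 cells (159 ± 10.6, 801 ± 46.3 and 32.4 ± 1.24 CPM) lay closer to that of floxed CD8 cells than the mean of untreated deficient CD8 cells did (30.2 ± 10.6, 253 ± 22.4 and 78.2 ± 7.52). For Gzmb the untreated mean (752 ± 329 CPM) lay closer to the floxed mean in linear CPM than the treated one did (4666 ± 1076). On a log2 scale that order is reversed. For Il10 the floxed mean lay between the untreated (1.43 ± 1.17 CPM) and treated means (6.06 ± 1.35). It was at a like distance from each in linear CPM, and closer to the treated mean on a log2 scale.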

How the data were processed

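RNA of sorted T cells was sequenced in 18 libraries. The deposited values were counts of reads per gene, made with featureCounts 1.5.1 (strand option 2, Ensembl release 87), per the file headers. Per the submitters' processing notes, STAR and DESeq2 were also used, on GRCm38. Of 49671 gene models, 49412 were matched to symbols in GENCODE.

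One model covered all 18 libraries (edgeR 4.0.16, R 4.3.3, with filterByExpr, TMM scaling and a robust quasi-likelihood fit), with 12 residual degrees of freedom and 14080 genes. DESeq2 1.42.0 and limma 3.58.1 were alternatives. A floor of 3 counts is 0.258 to 1.239 CPM per library and covers counting error only. The script was tested on simulated data. Named genes were 40 of interest whatever their result, up to 15 called genes with the largest difference per direction (group mean of at least 5 CPM), genes with opposite called effects, and up to 4 called members per list. Unnamed gene models and pseudogenes were counted. Genes added for other reasons are marked, and a few that the rule names are not reported here. The comparison, the 36 lists and the named genes were chosen with earlier results of these data known. Promoters were those of RefSeq.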

Additional observations from a re-analysis of the deposited data

Results flagged for a closer look

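The antibody effect differed between CD8 and CD4 cells, by the test of the difference itself, for 81 genes with the higher and 32 with the lower effect in CD8 cells (edgeR's quasi-likelihood test).

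Among these, 9 genes stand out because the CD8 effect was not the only called effect, or no separate effect was called. Il10 had a difference of 3.73 (log2) with opposite called effects. Pdcd1 had a difference of 0.92 with both cell types called up. Folr2 (-3.98), Fcna (-6.59) and Slc30a4 (1.16) were called in CD4 cells alone. Cd69 (-0.92), Mcoln2 (-2.02), Faxc (5.48) and Klra13-ps (-6.76) had a called difference with neither effect called. The CD8 effect of Mcoln2 was just short of a call (adjusted p = 0.0513, edgeR). With 1 library left out, Mcoln2 was called in 1 of the 12 fits, Pdcd1 in 3, Cd69 in 4, Fcna in 6, and Il10 and Folr2 in all 12.

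Groups of 3 libraries are too small for a test of single outlying libraries.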

How the results depend on the processing

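Scaling by DESeq2 size factors or upper quartiles, a stricter filter and leaving out mitochondrial and ribosomal-like models gave 103 to 106 genes, sharing 96 to 104 with the 113. The count was 665 (232 higher, 433 lower in CD8) without a filter on low counts, 355 (203 and 152) with DESeq2, 587 (312 and 275) with the 12 libraries alone, 42 (26 and 16) with marker covariates and 29 (23 and 6) without the 2 libraries rich in ribosomal-like counts. With limma voom it was 81, with 17 lower in CD8. The causes were not tested. Leaving out 1 library gave 49 to 108 genes, 36 to 77 higher and 13 to 31 lower in CD8.

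Replicate numbers did not meet the rule for pairing, which asks for a correlation over 0.1 in every pair: deviations of same-numbered CD8 and CD4 libraries correlated across genes at 0.164, 0.093 and 0.134 in untreated and 0.105, 0.103 and 0.289 in treated deficient cells, and at 0.003 to 0.088 in floxed cells. In the deficient groups each library correlated best with its own number, a hint from the data and not from the design. A replicate block on the number gave 179 calls (105 and 74), and one on condition and number gave 286 (138 and 148). The CD4 effect alone had 65 and 239 calls with these blocks, against 20 without and 177 with DESeq2.

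Of 78 named genes, 9 changed the sign of their difference in at least 1 setting, and 0 of the 9 were called (edgeR): Foxp3, Tnf, Mki67, Ccr7, Ifng, Mir155hg, Tox, Cd4 and Cd8b1. The pan T cell median was 0.26 in the main fit and -0.19 with the covariates. With the covariates Tnf became 0.16, Mki67 -0.16, Ifng 0.16 and Tox -0.2. The neutrophil median became -0.78 under the stricter filter. Foxp3 became -3.06 without treated CD8 replicate 3, where leaving out 1 library gave up to 5.05. Depth limits genes near the floor, such as Rassf6, Fcna and Foxp3 in CD8 cells. Of the 113 genes, 15 were called in all 12 settings other than those that leave out 1 library.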
